A study of Mus musculus with 4 samples.

Results

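The hemoglobin and erythroid maturation genes were followed through single cells of mouse ascites, the 4 adult globin genes Hba-a1, Hba-a2, Hbb-bs and Hbb-bt and the red cell genes Alas2, Slc4a1, Bpgm and Ube2l6. They were taken by symbol, as 8 of the 32285 genes in the deposited tables, and all 8 were detected in each of the 4 libraries. The ratios among them were measured in hemoglobin-dominated barcodes, those with over 50% of their UMIs (unique molecular identifiers, 1 per captured transcript) from the 4 globin genes, which were 37681 of 132644 kept barcodes. Their background was measured in 43862 leukocyte-like cells, which are cells of clusters named from B cell, T cell, macrophage, granulocyte, dendritic cell (DC) or mast cell markers.

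The ascites came from female FVB mice, collected 6 weeks after the injection of tumor cells. Per the methods of the study the cells were Br-Luc, a luciferase-bearing ovarian tumor line that lacks p53 and brca1 and carries myc and Akt-myr, injected into the peritoneum, and each sample pooled the ascites of 3 mice. One group received control siRNA (labelled siCont, 2 libraries) and the other siRNA against Fxr1 (labelled siFXR1-LNA, 2 libraries). Per the methods both siRNAs were of the locked nucleic acid form and carried by jetPEI, and both groups bore tumors. The cell pellets of both groups were treated with ACK buffer, which lyses red cells, before capture, so the red cells measured here are those left after lysis, and nothing in the labels says whether lysis was equally complete in each pool.

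A siFXR1-LNA replicate with fewer reads was left out of the study's own analysis, the labels do not say which, and both were used here. The libraries held 17309 to 54665 barcodes and 78179267 to 113606837 UMIs, of which 16874 to 54344 barcodes passed the filters on genes and mitochondrial UMIs. Fxr1, the targeted gene, was at 80.3 and 59.4 CPM of non-globin UMIs in the kept barcodes of the libraries labelled siCont and at 116 and 80.0 CPM in those labelled siFXR1-LNA. In these sums Fxr1 was not lower in the group named for its silencing, so the groups are called by their labels throughout. The sums mix all cell types in shares that differ between libraries, and Fxr1 was not compared within a cell type here. The study reports lower Fxr1 in epithelial cells of its siFXR1-LNA group, and lower FXR1 protein in transfected mouse tumor lines. Of the barcode sequences of a library, 10.9% to 15.3% also occurred in another library, and the corresponding share of hemoglobin-dominated barcodes was 11.7% to 15.6%. Each library is 1 replicate, and intervals on counts cover counting error only.

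Adult hemoglobin joins a pair of alpha-globin with a pair of beta-globin chains, each holding a heme. As red cells mature, globin mRNA comes to dominate their transcripts, the nucleus and most other transcripts are lost, and a few transcripts remain for a time. Alas2 makes the first enzyme of erythroid heme synthesis, Slc4a1 the band 3 anion exchanger of the red cell membrane, Bpgm the enzyme that makes the 2,3-bisphosphoglycerate that lowers the oxygen affinity of hemoglobin, and Ube2l6 a conjugating enzyme for the ubiquitin-like protein Isg15 that is also an interferon-stimulated gene. In suspensions of tissue cells, globin mRNA is a well-known part of the free RNA that enters droplets holding other cells.

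In the GENCODE vM21 annotation of the build GRCm38 (mm10), the alpha-globin genes are neighbors on the plus strand, Hba-a1 at chr11:32283511-32284465 and Hba-a2 at chr11:32296489-32297298. The beta-globin genes are on the minus strand, Hbb-bt at chr7:103812524-103813996 and Hbb-bs at chr7:103826534-103828096. Alas2 is at chrX:150547375-150570638 (plus strand), Slc4a1 at chr11:102348824-102366203 (minus strand), Bpgm at chr6:34476207-34505613 (plus strand) and Ube2l6 at chr2:84798828-84810335 (plus strand). The coding sequences of Hba-a1 and Hba-a2, each of 426 bases, differed at 1 base, C381T (counted from 1 at the start codon, Hba-a1 first). It is the third base of codon 127 and lies in exon 3. The coding sequences of Hbb-bs and Hbb-bt, each of 441 bases, also differed at 1 base, C417T (Hbb-bs first), the third base of codon 139 in exon 3. The stretches around these bases are shown because they are the coding bases by which a read can be given to one copy of a pair, with the differing base in capitals.
Hba-a1: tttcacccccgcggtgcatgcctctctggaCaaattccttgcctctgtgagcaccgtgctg
Hba-a2: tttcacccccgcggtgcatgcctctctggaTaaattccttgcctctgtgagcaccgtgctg
Hbb-bs: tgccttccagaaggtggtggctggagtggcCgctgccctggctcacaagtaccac
Hbb-bt: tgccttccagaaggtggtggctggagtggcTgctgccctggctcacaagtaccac

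After the stop codon, the alpha-globin transcripts were identical over the 74 bases that Hba-a1 has there, with 16 further bases in Hba-a2, whereas the beta-globin transcripts differed from the first base. A 3′ read that lies wholly in sequence shared by Hba-a1 and Hba-a2 cannot be placed in one of them, so the split between these genes is uncertain, and so is the alpha-globin share, since how such reads were counted is not given in the sources used here.

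Of the 8 genes, 7 had a promoter in the RefSeq table used (build GRCm38.p6), and Slc4a1 is named only. The 150 bases before the RefSeq start are shown for 4 genes, 1 alpha-globin, both beta-globins and Alas2, since these carry most of the counts of the group. Capitals mark matches, on either strand, to the CCAAT box, to the TATAA box, to AGATAA or TGATAA as GATA motifs or to the CCNCNCCC box, and neighboring matches can overlap. The GENCODE models of these 4 genes begin within or before these windows.
Hba-a2, chr11:32296342-32296491, plus strand: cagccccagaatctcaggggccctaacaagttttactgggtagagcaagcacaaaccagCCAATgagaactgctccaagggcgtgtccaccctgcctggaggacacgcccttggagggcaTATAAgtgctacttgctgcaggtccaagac
Hbb-bs, chr7:103827929-103828078, minus strand: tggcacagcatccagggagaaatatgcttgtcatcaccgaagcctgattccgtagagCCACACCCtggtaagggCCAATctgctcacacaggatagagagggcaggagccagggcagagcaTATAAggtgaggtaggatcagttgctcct
Hbb-bt, chr7:103813924-103814073, minus strand: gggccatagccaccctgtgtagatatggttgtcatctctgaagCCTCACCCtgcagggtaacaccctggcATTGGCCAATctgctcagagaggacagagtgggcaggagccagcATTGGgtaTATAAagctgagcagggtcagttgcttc
Alas2, chrX:150547267-150547416, plus strand: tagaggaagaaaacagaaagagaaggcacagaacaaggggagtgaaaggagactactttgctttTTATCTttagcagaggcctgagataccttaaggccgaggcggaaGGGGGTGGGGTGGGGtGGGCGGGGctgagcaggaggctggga

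The windows of Hba-a1 and Hba-a2 shared an unbroken run of 147 bases, and those of Hbb-bs and Hbb-bt one of 14 bases. All 4 globin windows held both the CCAAT box and the TATAA box, which were present in 24.5% and 14.2% of 32851 promoter windows of this length. Alas2 held AGATAA (5.65% of windows) on the minus strand and 4 overlapping or adjacent CCNCNCCC matches (38.1% of windows), and Ube2l6 held 1 CCNCNCCC match. These matches describe letters in the window and were not tested as binding sites.

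Globin transcripts took 30.5% and 43.0% of the UMIs of kept barcodes in the libraries labelled siCont and 10.2% and 10.2% in those labelled siFXR1-LNA. Hemoglobin-dominated barcodes were 46.7% (16970) and 63.5% (15943) of kept barcodes in the first group and 4.22% (2295) and 14.7% (2473) in the second. The group means were 55.1% ± 11.8 and 9.44% ± 7.38 (SD, n = 2 each), and the groups did not overlap. The two-sided exact permutation test gave p = 0.333, which is the smallest value that 2 libraries against 2 allow. The hemoglobin-dominated barcodes held 72.4%, 90.5%, 32.7% and 76.9% of the globin UMIs of siCont 1, siCont 2, siFXR1-LNA 1 and siFXR1-LNA 2, the order kept for values of 4 libraries from here on. With at least 500 genes per barcode, the hemoglobin-dominated share of kept barcodes was 15.9%, 7.56%, 4.02% and 11.7%, and the groups overlapped.

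The barcodes of a library did not fall equally clearly on either side of 50%. The median globin share of hemoglobin-dominated barcodes was 61.6%, 79.3%, 56.1% and 66.0%. Just inside the limit (50% to 55%) were 2996, 233, 939 and 290 barcodes, and just outside it (45% to 50%) 1792, 250, 999 and 237. In siCont 2, 89.5% of the hemoglobin-dominated barcodes were above 70% globin, against 16.1%, 1.22% and 30.6% in the other libraries. The libraries thus differed in how much non-globin RNA accompanied the globins, and the median number of genes per hemoglobin-dominated barcode was 445, 246, 634 and 546 at median depths of 1813, 2388, 2731 and 3229 UMIs.

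**Figure D1:**
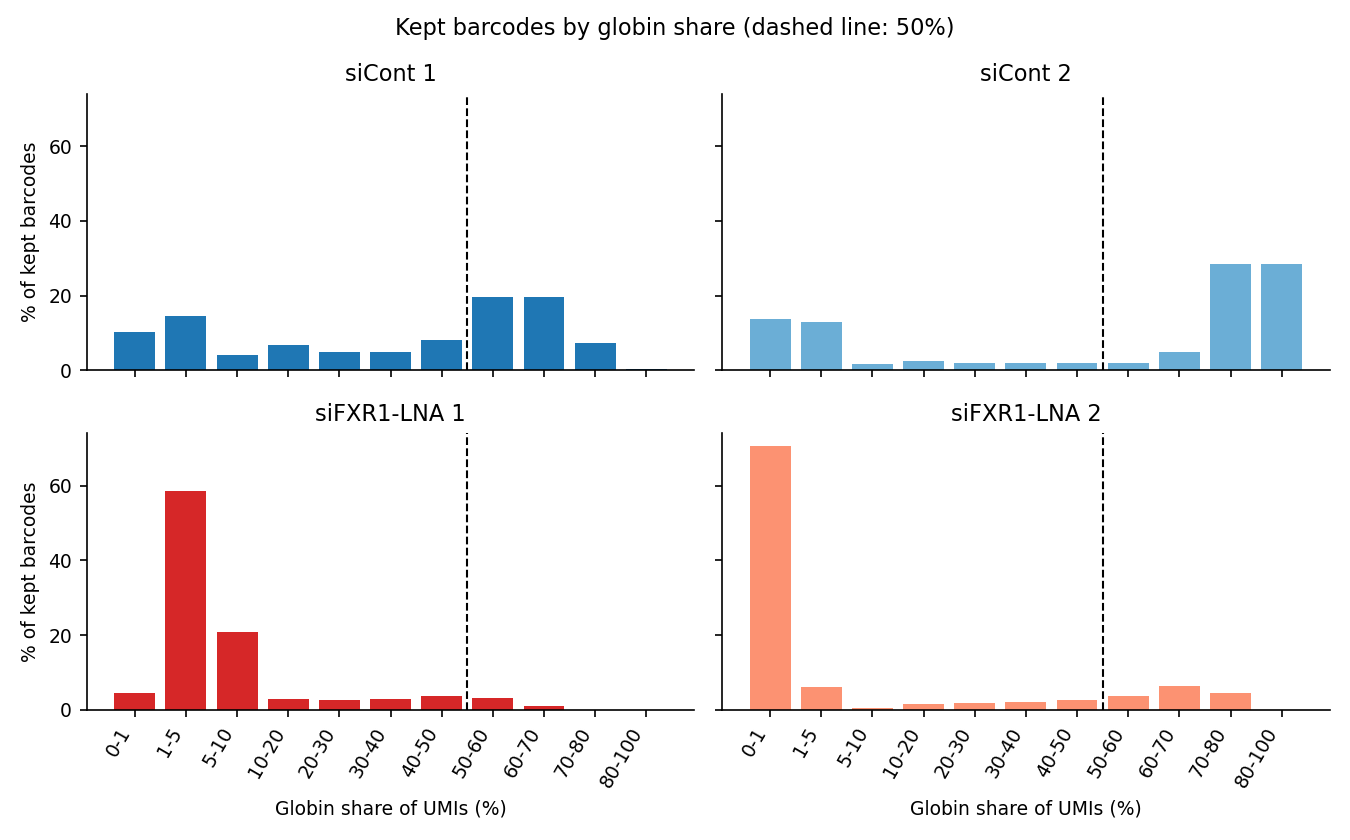
Percentage of kept barcodes (y axis) by the share of their UMIs from the 4 globin genes (x axis, in %, with unequal bins), 1 panel per library, the dashed line marking 50%. In siCont 2 the bins from 70% upwards hold 28.3% and 28.5% of barcodes, while in siFXR1-LNA 1 the bin of 1% to 5% holds 58.5% and in siFXR1-LNA 2 the bin below 1% holds 70.6%.

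The label of these barcodes was set beside red cell genes outside the globins. Alas2 was at 7240, 15097, 3529 and 7853 CPM of non-globin UMIs in hemoglobin-dominated barcodes and at 553, 386, 180 and 74.0 CPM in leukocyte-like cells. Slc4a1 was at 159, 811, 332 and 366 CPM against 11.3, 21.7, 18.2 and 4.03 CPM. Epb42 (protein 4.2 of the red cell membrane) was at 17.5, 42.0, 25.8 and 22.5 CPM against 1.07, 1.14, 1.18 and 0.154 CPM. All 3 genes were higher in hemoglobin-dominated barcodes of every library. So were 20.3% of all 12249 non-globin genes with at least 50 UMIs in these barcodes. The classes were split by globin, so this describes the label and does not test it. Markers of other cell types were present as well: the 7 macrophage markers summed to 2829, 1603, 874 and 2318 CPM, below their 15287, 9372, 4855 and 9649 CPM in leukocyte-like cells. The 6 mast cell markers, in contrast, summed to 6233, 4458, 95.3 and 363 CPM in hemoglobin-dominated barcodes and to 1396, 593, 59.6 and 90.8 CPM in leukocyte-like cells, and the 5 epithelial markers to 1029, 564, 647 and 752 CPM against 241, 84.4, 272 and 189 CPM. The 5 mesothelial markers (1143, 479, 644 and 457 CPM against 269, 64.4, 279 and 126 CPM) and the 5 fibroblast markers (538, 235, 1070 and 503 CPM against 121, 29.6, 424 and 134 CPM) were likewise higher in hemoglobin-dominated barcodes. Markers at 0 in both libraries labelled siFXR1-LNA were Cd8a among the T cell markers, Ncr1 and Prf1 among the NK markers, Clec9a and Xcr1 among the DC markers and Lum among the fibroblast markers. The part of other cell types in the results below was not tested. No doublet caller was run.

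Among the globins, the beta-globin gene Hbb-bs supplied most UMIs. In hemoglobin-dominated barcodes it was at 509775, 604275, 446190 and 492721 CPM of all UMIs, and Hbb-bt at 93233, 119538, 88508 and 118767 CPM. Hba-a1 was at 18795, 37111, 23714 and 31647 CPM and Hba-a2 at 12809, 24095, 15272 and 20863 CPM. For these 4 genes, the order of the genes was the same in each library. These are UMI levels that are not scaled by transcript length, since 1 tag is read near the 3′ end of a transcript.

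The heme gene Alas2 came next, at 2645, 3246, 1505 and 2639 CPM in hemoglobin-dominated barcodes. Bpgm was at 819, 1117, 511 and 873 CPM and Ube2l6 at 919, 1013, 491 and 765 CPM, and these 2 genes changed places between libraries. Slc4a1 was lowest of the 8 at 58.1, 174, 142 and 123 CPM. Alas2, Bpgm and Ube2l6 were each lowest in siFXR1-LNA 1, whereas Slc4a1 was lowest in siCont 1. Leaving out globin, mitochondrial and ribosomal protein genes, Alas2 ranked 4 by UMIs in these barcodes. Ahead of it were Gm42418 and AY036118, which overlap ribosomal RNA sequence, and Cmss1.

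**Figure D2:**
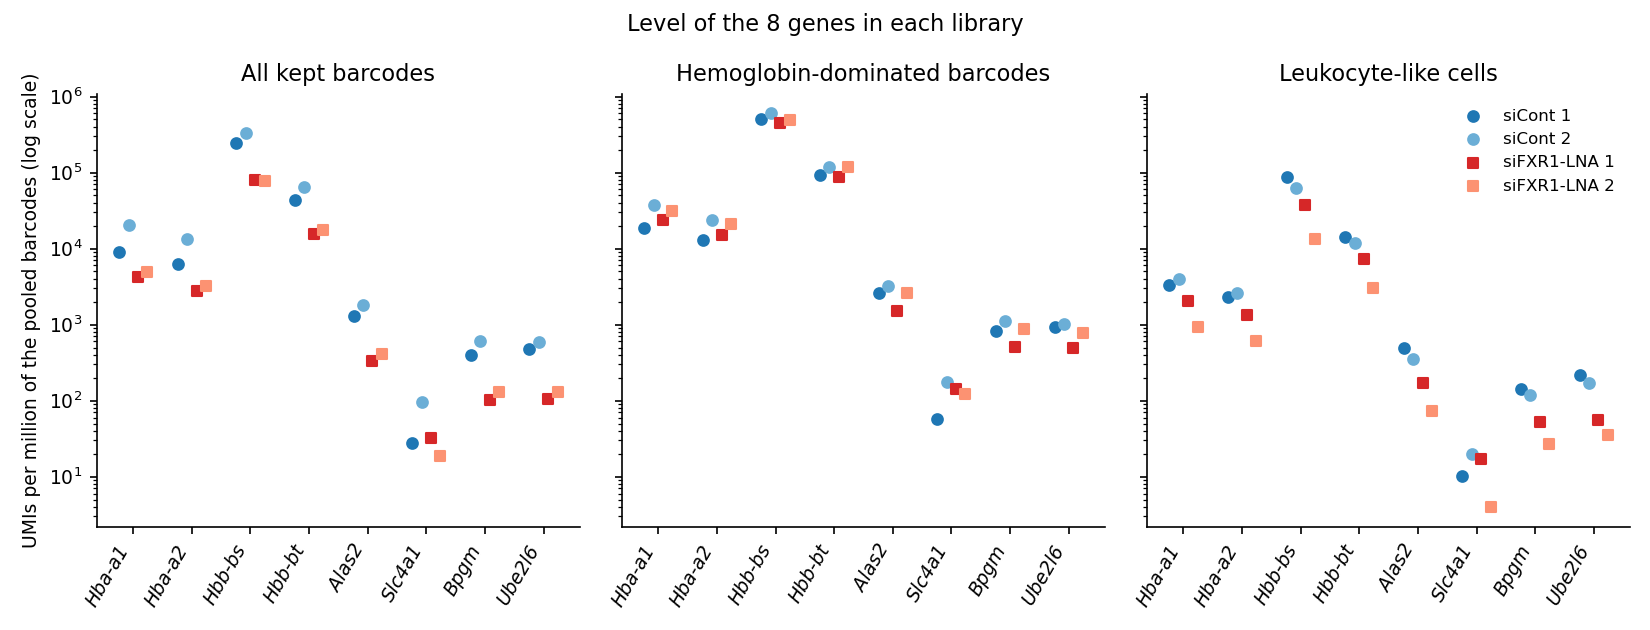
Level of each of the 8 genes (x axis) in CPM of all UMIs of the summed barcodes (y axis, log scale), in kept, hemoglobin-dominated and leukocyte-like barcodes, 1 point per library. In leukocyte-like cells the 2 libraries labelled siFXR1-LNA sit below both labelled siCont for 7 of the 8 genes, the exception being Slc4a1 with 10.1 and 19.9 CPM against 17.3 and 3.96 CPM. The share of all genes set apart in this way was not counted.

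The globins were next set against one another. In hemoglobin-dominated barcodes the alpha-globin share of globin UMIs was 4.98%, 7.80%, 6.80% and 7.91%, with siCont 1 apart from the other libraries. Hba-a1 supplied 59.5%, 60.6%, 60.8% and 60.3% of alpha-globin UMIs. Hbb-bs supplied 84.5%, 83.49%, 83.45% and 80.6% of beta-globin UMIs, with siFXR1-LNA 2 lowest. The alpha-globin share averaged 6.39% ± 1.99 in the libraries labelled siCont and 7.35% ± 0.787 in those labelled siFXR1-LNA (SD, n = 2), the groups overlapped, and the exact permutation test gave p = 0.667. The Hba-a1 share also overlapped between the groups (exact permutation p = 0.667). The Hbb-bs share did not overlap, at 84.0% ± 0.745 against 82.0% ± 2.03 (SD, n = 2), with p = 0.333 in the exact permutation test. Without siFXR1-LNA 2 the difference was -0.565 percentage points, so its size rests on that library.

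The other genes were scaled to globin, as UMIs per 10000 globin UMIs of the same barcodes. For Alas2 this ratio was 41.7, 41.3, 26.2 and 39.7, so 3 libraries lay close together and siFXR1-LNA 1 was well below them. Bpgm was at 12.9, 14.2, 8.91 and 13.1, again lowest in siFXR1-LNA 1. Ube2l6 was at 14.5, 12.9, 8.56 and 11.5 per 10000 globin UMIs. Slc4a1 was at 0.915, 2.22, 2.47 and 1.85, lowest in siCont 1.

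The groups did not overlap for Alas2 and Ube2l6 and overlapped for Slc4a1 and Bpgm. How many of all genes would not overlap on this scale was not counted. The means were 41.5 ± 0.240 and 33.0 ± 9.55 for Alas2, 13.7 ± 1.11 and 10.0 ± 2.10 for Ube2l6, 13.6 ± 0.931 and 11.03 ± 2.99 for Bpgm, and 1.57 ± 0.923 and 2.16 ± 0.437 for Slc4a1 (siCont and siFXR1-LNA labels, SD, n = 2). The exact permutation test gave p = 0.333 for the first pair of genes and p = 0.667 for the second. Without siFXR1-LNA 1, the Alas2 ratio differed between the groups by -1.78, and without siFXR1-LNA 2 by -15.3, so the size of that difference rests on siFXR1-LNA 1. The Ube2l6 difference of -3.65 was -2.16 without siFXR1-LNA 1.

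In leukocyte-like cells every one of the 8 genes was found, at levels that differed between the libraries. The 4 globins together were at 106333, 80777, 47702 and 18037 CPM of all UMIs, and the median cell held 123, 27, 55 and 10 globin UMIs at median depths of 3226.5, 3473.5, 2352 and 2893 UMIs. Alas2 was at 494, 355, 171 and 72.7 CPM, Bpgm at 142, 119, 53.1 and 26.8 CPM, Ube2l6 at 214, 169, 56.4 and 35.0 CPM and Slc4a1 at 10.1, 19.9, 17.3 and 3.96 CPM. Cells differed widely within a library: in siCont 1 the globin share ran from 0.470% at the tenth percentile to 32.7% at the ninetieth, and in siFXR1-LNA 2 from 0.0769% to 0.883%.

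Shares of cells with a UMI were compared after thinning each cell to 1000 UMIs. Alas2 was then found in 91.0%, 94.0%, 75.1% and 89.2% of hemoglobin-dominated barcodes and in 32.0%, 19.98%, 15.6% and 4.77% of leukocyte-like cells, which do not make this erythroid enzyme. Unthinned, these shares were 97.9%, 98.8%, 95.7% and 98.1% and 52.8%, 34.1%, 31.6% and 10.5%. Between 8 and 104 hemoglobin-dominated barcodes and between 194 and 525 leukocyte-like cells per library were too shallow for thinning. Bpgm was found in 52.3%, 58.1%, 38.2% and 48.9% of thinned hemoglobin-dominated barcodes and in 12.4%, 8.94%, 5.35% and 2.41% of thinned leukocyte-like cells. For Slc4a1 the thinned shares were 4.81%, 11.2%, 11.02% and 8.56% against 0.969%, 1.48%, 1.88% and 0.321%, so most hemoglobin-dominated barcodes had no Slc4a1 UMI at this depth.

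The alpha-globin share had a wider range between the 4 libraries than its mean gap between leukocyte-like cells and hemoglobin-dominated barcodes. The alpha-globin share of globin UMIs was 5.32%, 8.20%, 7.15% and 8.47% in leukocyte-like cells, higher than in hemoglobin-dominated barcodes in 4 of 4 libraries. The mean difference was 0.413 percentage points ± 0.103 (SD, n = 4), against a range of 2.93 percentage points between the libraries. The two-sided exact sign-flip permutation test over the 4 libraries gave p = 0.125, the smallest that 4 pairs allow. The range has siCont 1 at its low end, and not every pair of libraries was so far apart. In hemoglobin-dominated barcodes siCont 2 and siFXR1-LNA 2 were at 7.80% and 7.91%. In leukocyte-like cells with at most 10% globin the mean alpha-globin gap was 0.708 percentage points ± 0.345. The other ratios are given without a test. The Hba-a1 share differed by -0.151 percentage points ± 0.0723 and was lower in leukocyte-like cells in 4 of 4 libraries, but in cells with at most 10% globin it differed by 0.237 ± 0.550 and was lower in 2 of 4. The Hbb-bs share was higher in 4 of 4 libraries, by 0.825 percentage points ± 0.479, and in 3 of 4 among cells with at most 10% globin.

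The red cell genes were scaled to globin as well. Since globin UMIs are the denominator of these ratios and also split the classes, a higher ratio outside the hemoglobin-dominated barcodes is in part set by the split, and the gaps are descriptions without a test. In leukocyte-like cells Alas2 was at 46.5, 44.0, 35.9 and 40.3 UMIs per 10000 globin UMIs, which is 4.42 ± 3.93 (SD, n = 4) above hemoglobin-dominated barcodes, with the largest gap, 9.71, in siFXR1-LNA 1. Bpgm was at 13.3, 14.7, 11.1 and 14.8, higher by 1.21 ± 0.887. Slc4a1 was at 0.951, 2.47, 3.62 and 2.20, higher by 0.447 ± 0.491. Among leukocyte-like cells with at most 10% globin the gaps were wider, at 11.5 ± 6.36 for Alas2, 6.98 ± 7.74 for Bpgm and 1.29 ± 1.55 for Slc4a1. If leukocyte-like cells held these transcripts at the ratio to globin of the hemoglobin-dominated barcodes of their own library, that would account for 89.7%, 94.1%, 73.0% and 98.6% of their Alas2 UMIs and 96.8%, 96.6%, 80.1% and 88.6% of their Bpgm UMIs.

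In leukocyte-like cells Ube2l6 was at 20.2, 20.9, 11.8 and 19.4 UMIs per 10000 globin UMIs, which is 6.20 ± 2.23 (SD, n = 4) above hemoglobin-dominated barcodes, and 30.7 ± 18.7 above them in cells with at most 10% globin. The globin ratio of its own library accounted for 71.8%, 61.7%, 72.4% and 59.5% of the Ube2l6 UMIs. DC-like cells had the highest ratio of the leukocyte classes compared, 27.0, 30.8, 18.1 and 31.1, followed in each library by macrophage-like cells with 20.9, 25.5, 12.99 and 20.6. In B-like cells it was 17.6, 15.7, 8.82 and 16.1, nearer to the 14.5, 12.9, 8.56 and 11.5 of hemoglobin-dominated barcodes. The order of this ratio from DC-like to macrophage-like to B-like cells held in each of the 4 libraries. It depends on the globin level of each class, which is the denominator. By CPM of all UMIs, Ube2l6 was at 270, 185, 62.6 and 40.6 CPM in B-like cells. That was above the 166, 142, 37.9 and 25.1 CPM of macrophage-like cells in each library.

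**Figure D3:**
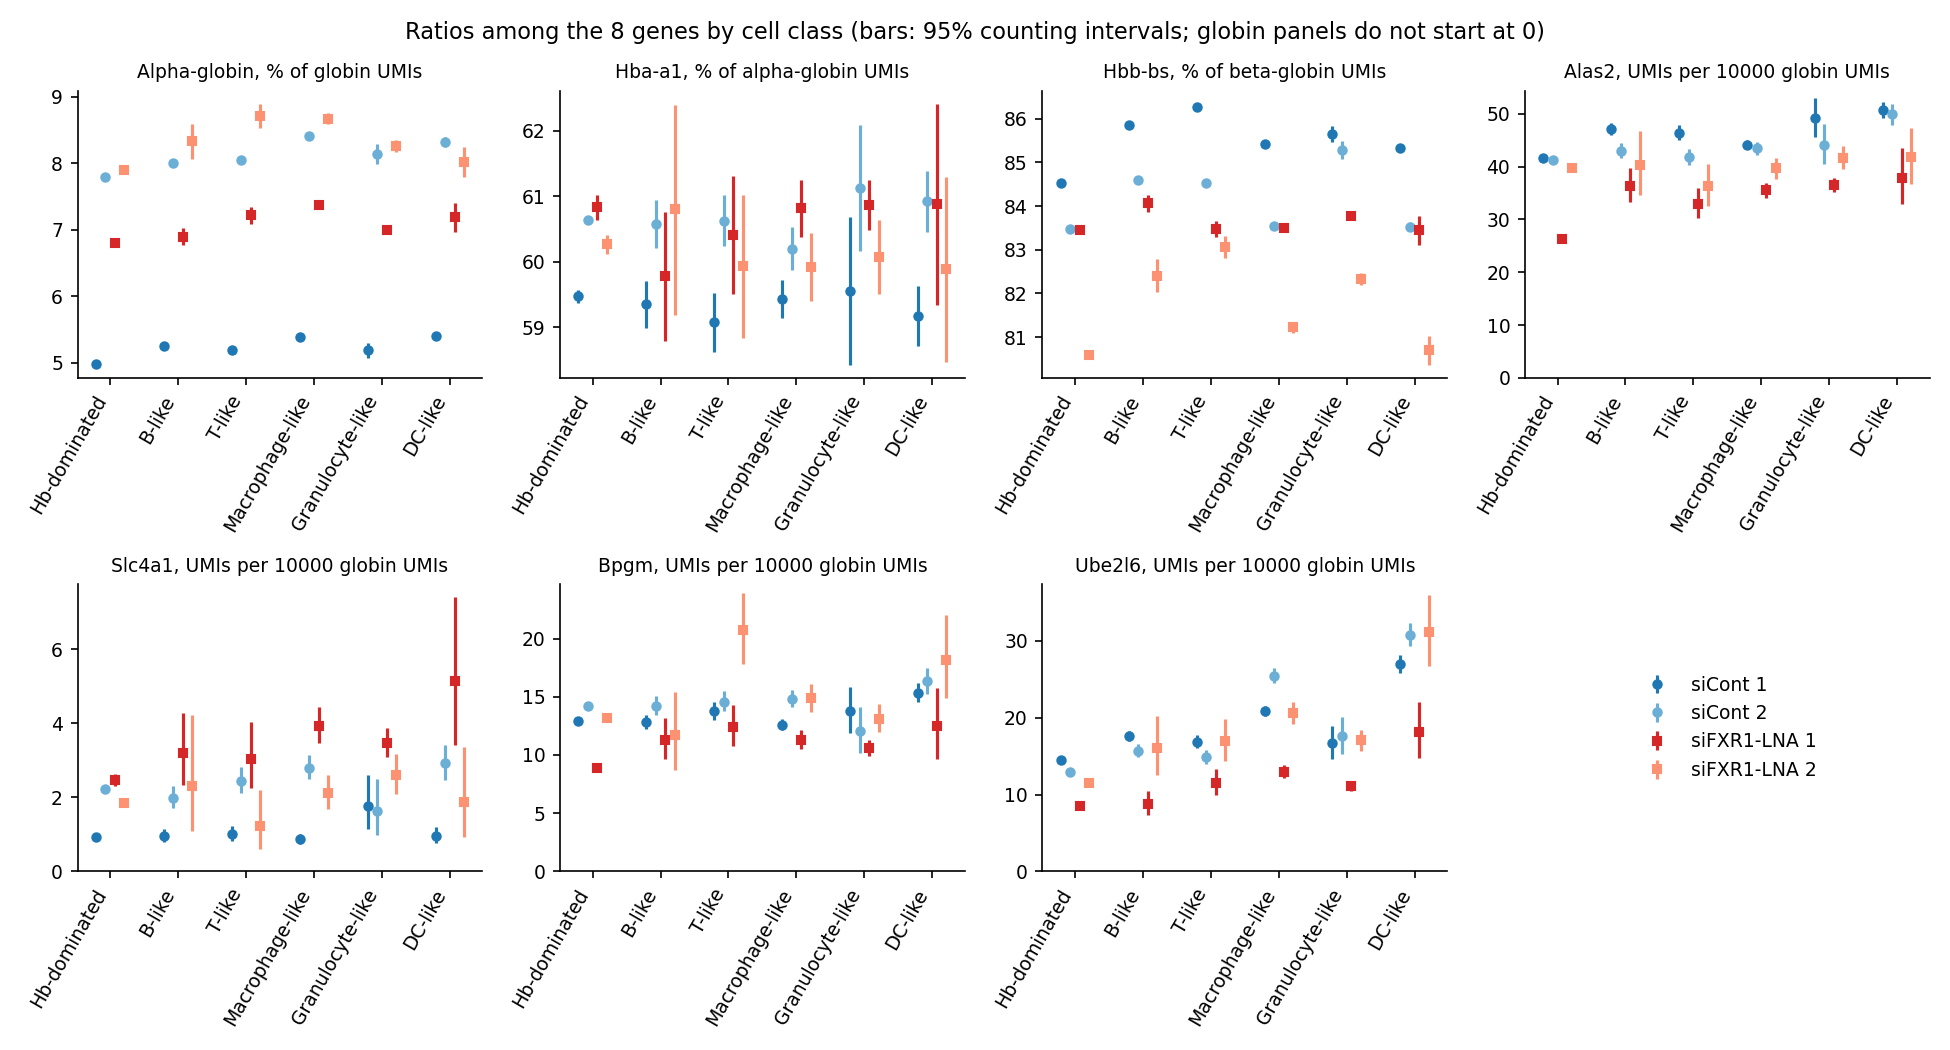
Ratios among the 8 genes (y axes, percent of globin UMIs or UMIs per 10000 globin UMIs) in hemoglobin-dominated barcodes and 5 leukocyte-like classes (x axis), 1 point per library with 95% counting intervals. The alpha-globin points of siCont 1 stay between 4.98% and 5.41% in every class, below the other libraries. The ratio of Ube2l6 to globin is higher in DC-like and macrophage-like cells of each library than in hemoglobin-dominated barcodes.

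Kept barcodes were also sorted on their globin share, without cell names. Globin UMIs both sort the barcodes and divide the ratio, so a rise of the ratio towards low shares is in part built in, and these values describe the genes side by side. For Ube2l6, the ratio to globin in barcodes with 0% to 1% globin was 138, 202, 25.5 and 80.2 UMIs per 10000 globin UMIs, and in barcodes with 50% to 60% globin it was 15.1, 13.4, 8.70 and 10.7. For Alas2 the corresponding values were 74.4, 60.8, 52.0 and 61.7 against 43.3, 43.7, 26.4 and 38.8. For Bpgm they were 40.3, 33.3, 22.4 and 50.2 against 12.7, 14.5, 8.75 and 10.4. From 10% globin upwards the Alas2 ratio stayed between 39.0 and 46.7 in siCont 1 and between 41.1 and 44.6 in siCont 2. In siFXR1-LNA 1 it was 32.1 at 10% to 20% globin and 26.1 at 60% to 70%, and the 28 barcodes above 70% had 22.6. Alpha-globin shares moved less, from 5.92%, 8.15%, 7.22% and 9.23% below 1% globin to 4.95%, 7.93%, 6.78% and 7.95% at 50% to 60%.

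**Figure D4:**
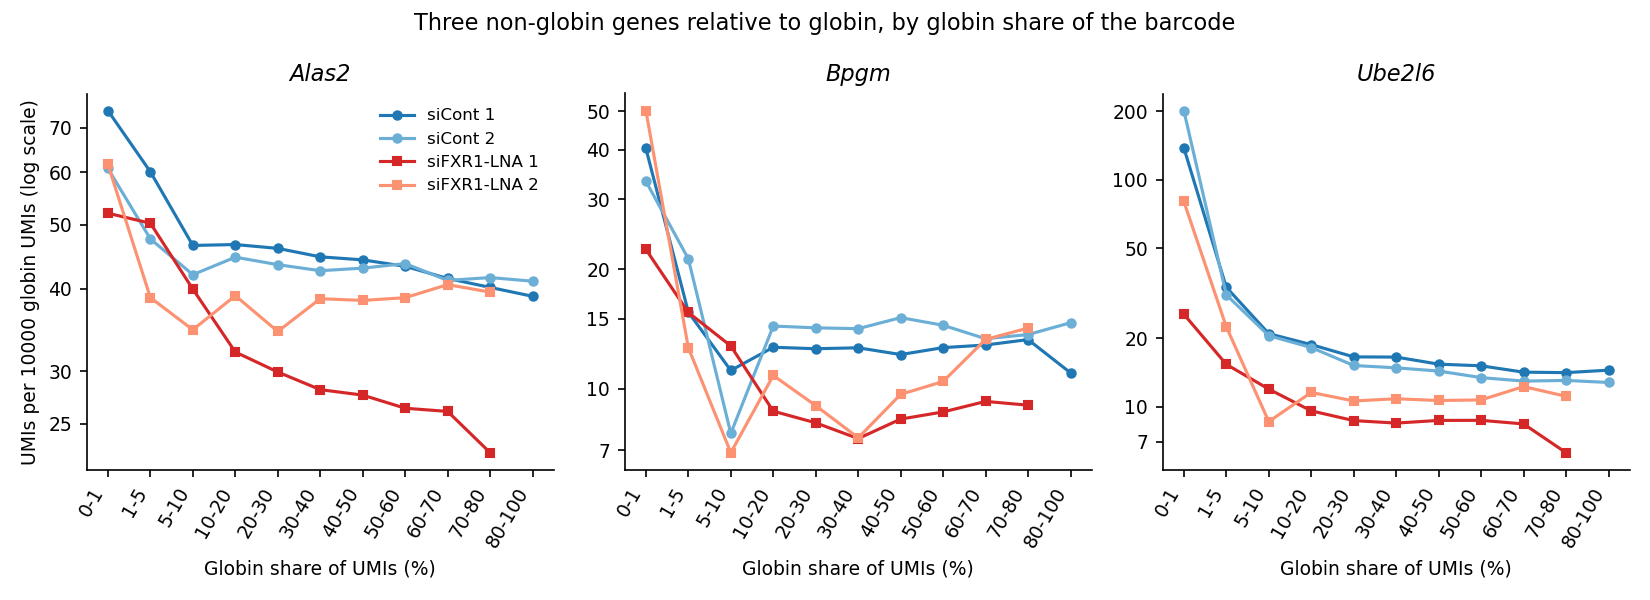
UMIs of Alas2, Bpgm and Ube2l6 per 10000 globin UMIs (y axes, log scale, not starting at 0) in kept barcodes sorted by globin share (x axis, in %), 1 line per library. Above 10% globin the lines of Ube2l6 lie between 6.27 and 18.8, and below 1% they reach 25.5 to 202.

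Other genes of the red cell were described from lists of heme synthesis, membrane, maturation, metabolism, transcription factor and proliferation genes. They were set between hemoglobin-dominated barcodes and leukocyte-like cells of the same library by CPM of non-globin UMIs. Because the barcodes were chosen by their globin content, this is a description without a test. Of all 12249 non-globin genes with at least 50 UMIs in hemoglobin-dominated barcodes, 2481 (20.3%) were higher there in all 4 libraries. Of the maturation and clearance genes 14 of 15 were higher in all 4 libraries, and of the membrane and skeleton genes 16 of 19. The counts were 7 of 11 for heme synthesis, 6 of 10 for metabolism and antioxidants, 7 of 12 for transcription factors and early erythroid genes, 2 of 6 for proliferation genes and 3 of 6 for the other globin genes. Ahsp was not found by that symbol and not counted.

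Within the maturation list, Ubb (ubiquitin B) was 2.89, 4.15, 2.78 and 2.76 times as high in hemoglobin-dominated barcodes as in leukocyte-like cells and Mkrn1 (a ubiquitin ligase) 8.20, 21.4, 5.43 and 13.5 times. On the same scale Hbb-bs was 14.5, 41.4, 26.9 and 107 times as high. In the membrane list, Epb41 (protein 4.1, which ties the membrane skeleton) was 6.67, 14.9, 7.08 and 12.3 times as high and Cd24a (heat-stable antigen) 6.70, 15.04, 6.28 and 9.56 times. The 3 membrane genes that were lower in all 4 libraries were Gypc, Slc2a1 and Cd47, named after their values were seen.

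In the heme list, Fech (ferrochelatase, which puts iron into the ring) was 9.25, 27.5, 7.91 and 28.8 times and Slc25a37 (mitoferrin, which brings iron into mitochondria) 8.43, 25.3, 9.82 and 22.4 times as high. Alad, the enzyme after Alas2, was 3.93, 4.91, 2.32 and 3.32 times as high. Among metabolic genes, Gpx1 (glutathione peroxidase) was 1.71, 3.54, 2.87 and 2.56 times, Prdx2 (a red cell peroxiredoxin) 3.77, 8.37, 4.82 and 8.83 times and Car2 (carbonic anhydrase) 13.8, 34.8, 16.4 and 72.3 times as high. Of the early genes, the transferrin receptor Tfrc was 1.32, 3.49, 2.29 and 3.32 times and Kit, also a mast cell gene, 2.83, 2.98, 1.68 and 2.34 times as high, whereas Eif2ak1, the heme-regulated kinase, was 0.946, 0.834, 0.900 and 0.770 times as high. The proliferation genes Top2a (2.09, 1.21, 1.49 and 0.969), Pcna (1.28, 0.736, 1.15 and 1.12) and Mki67 (1.44, 1.04, 1.04 and 1.26) lay closer to 1 than those of the globins. The minor alpha-type globins Hbq1b (14.9, 43.2, 21.1 and 109) and Hbq1a (13.3, 58.0, 30.4 and 161) followed the adult globins at 0.726, 0.634, 0.846 and 0.647 and at 0.106, 0.0973, 0.0946 and 0.110 UMIs per 10000 globin UMIs. The embryonic gene Hbb-y had 28 UMIs over the 4 libraries, and Hbb-bh1 and Hbb-bh2 were at 0.

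**Figure D5:**
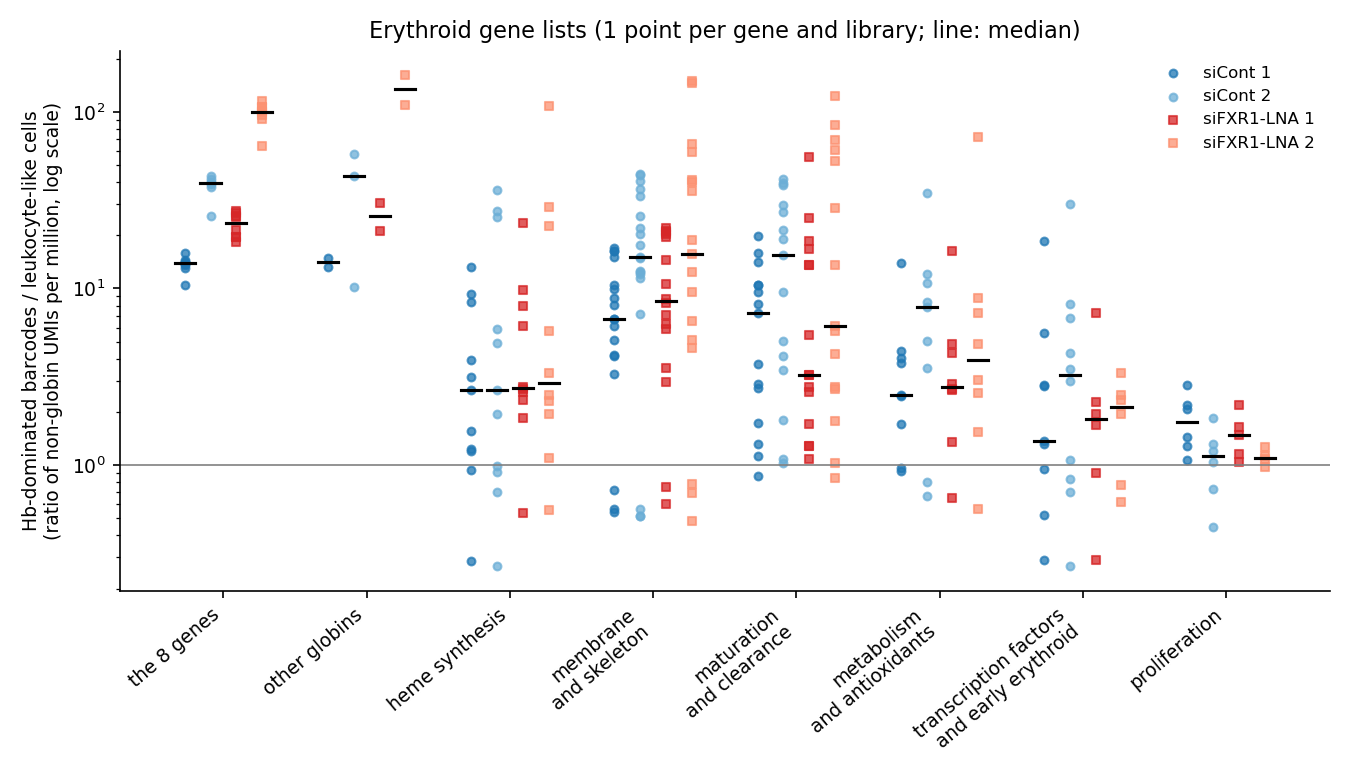
Ratio of each gene's level in hemoglobin-dominated barcodes to its level in leukocyte-like cells (y axis, log scale, CPM of non-globin UMIs) for the 8 genes and 7 erythroid lists (x axis), for genes with at least 10 UMIs in the barcodes of that library. Points are genes, colored by library, black lines are medians, and the grey line marks 1. The 8 genes and the other globins lie above 10 in each library, and the proliferation genes lie between 0.445 and 2.85.

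The abundance of globin in a summed profile was also used to find the genes most like it. The 39 profiles were hemoglobin-dominated barcodes, cell classes and unnamed clusters by library. Over them, the Pearson correlation of log2(CPM + 1) with summed globin was 0.99 for Alas2, 0.96 for Bpgm and 0.94 for Ube2l6, the first 3 of 12249 genes, and 0.77 for Slc4a1 at rank 16. Among the 10 closest genes outside the group were Tent5c (0.92), Gabarapl2 (0.91), Ccndbp1 (0.86), Isca1 (0.85), Apol11b (0.83), Isg20 (0.81), Rsad2 (0.80), Fech (0.79) and Ncoa4 (0.79). Hemoglobin-dominated barcodes were chosen by their globin, and only genes with at least 50 UMIs in them were ranked. The ranking is therefore in part set by that choice. The profiles also share libraries and depth, so these are descriptions without a test. Globin, mitochondrial and ribosomal protein genes left out, the 10 genes with most UMIs in hemoglobin-dominated barcodes held, besides Alas2, the iron store gene Fth1. Fth1 was at 7615, 5909, 9780 and 14040 CPM of non-globin UMIs there and 9195, 4796, 26607 and 28518 CPM in leukocyte-like cells. Also among the 10 were Lgals1, Camk1d, Gpx1, Tpt1 and Lars2.

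Whether the 8 genes differed between the groups was tested on UMI counts summed per library, with edgeR's quasi-likelihood test and Benjamini-Hochberg adjustment over all genes tested. In the sum of all kept barcodes, Alas2 was at 1309, 1789, 333 and 405 CPM, Bpgm at 393, 614, 104 and 132 CPM and Ube2l6 at 477, 587, 104 and 128 CPM. For these and the 4 globins both libraries labelled siFXR1-LNA were below both labelled siCont. How many of all genes were set apart in this way was not counted. The log2 differences were -2.36 ± 0.40 for Alas2, -2.40 ± 0.43 for Bpgm, -2.48 ± 0.34 for Ube2l6 and -2.17 ± 0.95 for Hbb-bs (SE), and Slc4a1 had -1.63 ± 0.78. None of the 8 passed the edgeR test (adjusted p 0.129 to 0.322), and 0 of 17939 genes passed it (0%). An unadjusted p under 0.05 in edgeR was found for 3499 genes, among them 6 of the 8. DESeq2 called 1995 of 18893 genes, 7 of the 8 among them (all but Slc4a1). Without siCont 1 or without siCont 2 the edgeR test called 285 and 272 genes. In these sums, fewer hemoglobin-dominated barcodes and less globin per barcode cannot be told apart. The size of the log2 differences also depended on the barcode filter. With at least 500 genes per barcode they were -0.69 for Alas2, -0.66 for Bpgm and -1.03 for Ube2l6. Hbb-bs then had -0.47 and Slc4a1 0.27.

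In hemoglobin-dominated barcodes the globin level was set by the choice of barcodes, so the test bears on the other 4 genes only. Of these, Alas2, Slc4a1, Bpgm and Ube2l6, 0 passed, where 210 of 12632 genes did (1.66%). For these 4 genes the log2 differences ran from -0.62 for Slc4a1 to -1.13 for Ube2l6 (SE 0.56 to 0.77, edgeR adjusted p 0.318 to 0.704). The direction is not settled for Alas2, Slc4a1 and Bpgm: Slc4a1 and Bpgm turned positive without siCont 2. With at least 500 genes per barcode Alas2, Slc4a1 and Bpgm did. Ube2l6 stayed negative, but at -0.28 without siCont 2 and -0.060 with at least 500 genes per barcode. Without siCont 2 Slc4a1 passed as higher, at 1.40 (edgeR adjusted p = 0.0304), and without siCont 1 it passed as lower, at -1.47 (adjusted p = 0.00836), as did Alas2 at -1.66 (0.0259), Bpgm at -1.70 (0.0163) and Ube2l6 at -1.71 (0.0131). In fits without 1 library, the lone library of a group is assumed to vary like the other group. None of the 8 had an unadjusted p under 0.05 in edgeR. The DESeq2 alternative called 730 genes and 0 of the 8, and without either library labelled siFXR1-LNA the edgeR test called 0. In the other erythroid lists 5 genes passed, named after their values were seen. Slc2a1 (a glucose transporter) and Tfrc rose by 2.49 ± 0.35 and 2.79 ± 0.45 (log2, SE, edgeR adjusted p = 0.0321 and 0.0441), and Mcm5, Top2a and Birc5 of the 6 proliferation genes fell by 2.81 ± 0.41, 2.81 ± 0.48 and 2.27 ± 0.36 (edgeR adjusted p = 0.0343, 0.0468 and 0.0405). In leukocyte-like cells the groups were apart in the same direction for all 5 of these genes. There Slc2a1 was at 24.9, 34.1, 161 and 166 CPM of non-globin UMIs and Tfrc at 51.5, 13.8, 245 and 67.7 CPM. Top2a was at 77.3, 45.3, 12.5 and 10.1 CPM, Mcm5 at 25.8, 29.5, 3.93 and 5.33 CPM and Birc5 at 31.8, 27.5, 7.94 and 7.04 CPM. All 6 proliferation genes passed as lower in macrophage-like cells in edgeR. Tfrc was also among the 10 leading genes of an unnamed cluster with 38890 of its 42162 cells in siFXR1-LNA 1, and another unnamed cluster, led by the cell cycle gene Cdc20, had 5591 of its 6133 cells in siCont 1. The mast cell markers are given above, and the part of these cells was not tested.

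In B-like cells the globins and the red cell genes were also lower in both libraries labelled siFXR1-LNA, apart from Slc4a1. Here too the share of all genes set apart in this way was not counted, and the 8 genes share the libraries' globin level. Hbb-bs was at 124793, 91842, 55482 and 19115 CPM, Alas2 at 724, 508, 258 and 102 CPM, and Ube2l6 at 270, 185, 62.6 and 40.6 CPM. The log2 differences were -1.66 ± 0.52, -1.90 ± 0.51 and -2.28 ± 0.36 (SE). None of the 8 passed the edgeR test (adjusted p 0.0857 to 0.732), where 24 of 12359 genes did (0.194%). An unadjusted p under 0.05 in edgeR was found for 7 of the 8, all but Slc4a1, and for 1799 of the 12359 genes. DESeq2 called the same 7, among 482 of 12805 genes. Ube2l6 passed edgeR without siCont 1 or without siCont 2 (adjusted p = 0.0128 and 0.00597), and Hbb-bs and Hbb-bt without siFXR1-LNA 1 (both adjusted p = 0.0328). Each of these fits leaves 1 group with a lone library. Leaving out cells with over 10% globin, the differences were -0.12 for Hbb-bs, -0.09 for Alas2 and -0.76 for Ube2l6. This leaves out cells by the globin level itself, so the smaller differences of the globins and of genes that move with them follow in part from the filter. The share of B-like cells with over 10% globin was 44.2%, 24.7%, 12.2% and 4.22%.

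In macrophage-like cells 3 of the 8 genes fell, where 2789 of 14539 genes passed the test (19.2%) and 1356 of them were lower in the group labelled siFXR1-LNA (9.33%). Ube2l6 was at 166, 142, 37.9 and 25.1 CPM, a log2 difference of -2.07 ± 0.23 (SE, edgeR adjusted p = 0.0113). Bpgm was at 100, 82.6, 33.0 and 18.2 CPM (-1.62 ± 0.31, edgeR adjusted p = 0.0300) and Alas2 at 351, 242, 104 and 48.5 CPM (-1.75 ± 0.41, edgeR adjusted p = 0.0480). The 4 globins had differences of -1.25 to -1.54 with adjusted p of 0.0672 to 0.125, and Slc4a1 had -0.47 ± 0.78 (adjusted p = 0.692). DESeq2 called 6 of the 8, all but Hbb-bs and Slc4a1, among 3404 of 15032 genes. The called share of the group exceeds the background share of lower genes, but the 8 genes share the libraries' globin level and are not independent of each other.

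Macrophage-like cells with over 10% globin were left out as an alternative, a filter that acts on the globins and on genes that move with them. Ube2l6 then still passed (-1.91, edgeR adjusted p = 0.0128), while Alas2 (-1.04, adjusted p = 0.350) and Bpgm (-0.65, adjusted p = 0.430) did not. With cells named from their own markers, 2 of these 3 genes no longer passed. Alas2 and Bpgm also missed the threshold without any 1 of the 4 libraries (adjusted p 0.0557 to 0.111), and Ube2l6 without either library labelled siFXR1-LNA, where it had -2.39 and -1.80 (edgeR adjusted p = 0.0633 and 0.0523). The test then called 10 and 1 genes in all. Macrophage-like cells were 2 clusters, and 1 of them came from the libraries labelled siFXR1-LNA apart from 7 cells. In the other cluster alone (cluster 2), with 4730, 2224, 1376 and 1507 cells, Ube2l6 was at 166, 142, 44.7 and 26.8 CPM, Alas2 at 350, 242, 120 and 49.9 CPM and Bpgm at 100, 82.5, 41.8 and 19.99 CPM.

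The level beyond the globin ratio was computed for 3 of the genes, starting with Ube2l6. After subtracting the UMIs that the globin counts of a class would bring at the ratio of the hemoglobin-dominated barcodes of the same library, 51.1, 69.97, 12.9 and 11.05 CPM of Ube2l6 remained in macrophage-like cells, 108, 117, 32.5 and 38.0 CPM in DC-like cells and 48.2, 32.9, 1.89 and 11.5 CPM in B-like cells. In each of these classes both libraries labelled siFXR1-LNA were below both labelled siCont. On this scale, the share of all genes with groups apart was not counted. For Alas2, which leukocytes do not use, the same subtraction left 19.8, 11.9, 27.1 and -0.0786 CPM in macrophage-like cells, 77.9, 55.6, 39.7 and 4.10 CPM in DC-like cells and 85.0, 20.1, 72.4 and 1.58 CPM in B-like cells. For Bpgm it left -2.41, 3.42, 7.01 and 2.09 CPM, 21.1, 13.8, 12.02 and 9.82 CPM, and -1.01, 0.212, 17.01 and -3.67 CPM in the same classes. The groups were thus apart in DC-like cells for these 2 genes as well, and overlapped in the other 2 classes.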

How the data were processed

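Single-cell RNA libraries of mouse ascites were analysed, 2 labelled siCont and 2 labelled siFXR1-LNA. The files the authors deposited hold raw UMI counts for each gene in each barcode, made per the submitters' processing notes with Cell Ranger 7.0.0 on mm10 and not normalized. The labels and the series text name different versions of the 3′ kit. The counting settings for reads shared by several genes are not given in the sources used here.

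The limits of the study's methods were applied to barcodes (100 to 4800 genes, no more than 15% of UMIs mitochondrial). Those with at most 50% globin UMIs were clustered in Seurat 5.3.0 (R 4.3.3; 2000 variable genes, 50 components, resolution 0.1) without the 8 genes and without integration. A cluster took the name of a marker list with at least 3 raised markers (at least 2 times the mean of the other clusters, in at least 5% of cells). This rule was set after the clusters were seen, and other clusters could change the leukocyte values. The mast-like cluster (307 cells) was shallow and had no mast cell marker among its 10 leading genes. T-like cells were not tested, since an NK marker and no T cell marker was among the leading genes of a T-like cluster.

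UMI counts were summed per library and class, given as CPM, and tested with edgeR 4.0.16 (TMM, filterByExpr, quasi-likelihood test, Benjamini-Hochberg, threshold 0.05), checked on simulated counts. DESeq2 1.42.0 was an alternative. Ratios were compared with exact permutation tests (SciPy 1.17.1). How many of all genes set the groups apart was not counted, so a lack of overlap has no background share. Intervals in plots are 95% exact intervals. The members, lists and tests were chosen with earlier results of these data known. The text names the 8 genes, Fxr1, the 3 genes of each list and the 10 genes with most UMIs in hemoglobin-dominated barcodes, and the 10 genes most like globin. The 10 genes with most UMIs were taken outside globin, mitochondrial and ribosomal protein genes. Some genes under this rule are not reported here. Libraries held 78179267 to 113606837 UMIs. Nothing says that pools share an origin beyond their group, so p-values measure the spread between these pools.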

Additional observations from a re-analysis of the deposited data

How the results depend on the processing

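Over 368 alternative values of the 8 genes' group differences, 275 kept direction and side of the threshold, 57 newly passed it, 14 no longer passed and 22 changed sign. These include the globins of hemoglobin-dominated barcodes, whose level was set by the choice of barcodes. Counts of genes passing moved more, and the cause was not tested. In all kept barcodes (0 in the edgeR test) DESeq2 gave 1995, no filter on low counts 384 and leaving out 1 library 0 to 285. In hemoglobin-dominated barcodes (210) they were 730, 1739 and 0 to 1302, with 134 under DESeq2-type size factors, 433 at a 30% globin limit and 0 at 500 or more genes per barcode. In B-like cells (24) they were 482, 1359 and 13 to 702, with 0 when cells were named from their own markers and 104 without cells over 10% globin. In macrophage-like cells (2789) the count was 1377 with cells named from their own markers and 1 to 1710 leaving out 1 library. With the replicate number as a block (replicate block), the counts were 4190, 2538, 799 and 3971, and 14 of the 32 values of the 8 genes newly passed. The numbers are not known to pair the pools: same-numbered libraries deviated together with r = 0.592 in all kept barcodes, 0.428 in hemoglobin-dominated barcodes, 0.330 in B-like and 0.349 in macrophage-like cells, from 2 pairs.

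Signs changed as follows. The globin level of hemoglobin-dominated barcodes was set by their choice, so the globin signs there are listed only. In hemoglobin-dominated barcodes with at least 500 genes, the log2 differences were 0.56 for Hba-a1, 0.53 for Hba-a2, 0.31 for Hbb-bs, 0.51 for Hbb-bt, 0.10 for Alas2, 0.44 for Slc4a1 and 0.082 for Bpgm. Leaving out 1 library there, they ran from -1.46 to 0.81 for Hba-a1, -1.45 to 0.75 for Hba-a2, -1.42 to 0.11 for Hbb-bs, -1.24 to 0.40 for Hbb-bt, -1.47 to 1.40 for Slc4a1 and -1.75 to 0.029 for Bpgm, positive without siCont 2. Slc4a1 was at 0.27 in all kept barcodes with at least 500 genes. Without cells over 10% globin, B-like cells had 0.083 for Hba-a1, 0.034 for Hba-a2, 0.46 for Hbb-bt and 1.26 for Slc4a1, and macrophage-like cells 1.40 for Slc4a1. Leaving out 1 library, Slc4a1 ran from -1.90 to 0.18 in B-like cells and from -1.89 to 0.25 in macrophage-like cells. The alpha-globin share differed by -0.445 to 2.37 percentage points leaving out 1 library, the Hba-a1 share by -0.0844 to 1.08 (-0.63 at a 70% globin limit) and Slc4a1 per 10000 globin UMIs by -0.0613 to 1.24, negative without siCont 1.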
